A study of Arabidopsis thaliana with 8 samples.

Results

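The response described here is the change in gene expression of wild-type Arabidopsis thaliana roots after 24 h without iron. The members are the 2 arrays of wild-type roots on medium without iron and the 2 arrays of wild-type roots on medium with iron, out of 8 arrays in the series, taken by the genotype, medium and replicate number in the labels. The -Fe roots were wild-type Columbia, 7 days after germination, kept for 24 h on medium in which 0.3 mM ferrozine, a chelator of ferrous iron, took the place of the iron salt. The +Fe roots were of the same genotype and age and spent the same 24 h on the standard medium, which holds ferric EDTA. The other 4 arrays are pye-1 roots, mutant in the basic helix-loop-helix (bHLH) factor POPEYE (PYE), on the same media, and enter here only through the shared estimate of the spread and where the wild-type response was set against them. About 320 whole roots were cut below the hypocotyl for each replicate, which the labels call biological, so each value is a mean over all cell types of many plants. The response was read over all 22746 non-control probe sets of the array, of which 13513 are named for 1 gene here, 503 for several and 8730 for none.

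Iron is poorly soluble in soil, and Arabidopsis takes it up by acidifying the soil, secreting coumarins that mobilise ferric iron, reducing ferric to ferrous iron at the root surface and importing the ferrous ion. The bHLH factor FIT, with partners of the bHLH subgroup Ib such as BHLH101, drives the uptake genes, while an upper tier of bHLH factors and the hemerythrin-containing ubiquitin ligases BTS and BTS-like control how strongly the response runs. Many peroxidases, cytochromes and plastid proteins hold iron as heme or iron-sulfur clusters, and roots short of iron are known to alter root hairs and cell walls as well as uptake.

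The deposited signals were on a common scale: the mean with 2% of probe sets trimmed at each end was 250.02 on each wild-type array. Median signal lay between 93.0 and 95.5 on the 4 wild-type arrays, a closeness that a common scale makes likely. Log2 signals correlated at 0.981 between the -Fe arrays, 0.977 between the +Fe arrays and 0.964 to 0.970 between media. The control level, meaning the brightest of 27 bacterial control probe sets on an array, was 12.8 and 18.5 on the -Fe arrays and 16 and 23.7 on the +Fe arrays. Signals at or under it are read as background. A 25S ribosomal RNA control read 247 and 1907 on the -Fe arrays and 565 and 4047 on the +Fe arrays, higher in replicate 2 on both media. Replicate number was kept as a block because the response was defined that way, not because of this control. With the block, a change is the mean of the -Fe over +Fe difference within replicate 1 and within replicate 2. The 3 reference genes with a tested probe set, PEX4 (a ubiquitin-conjugating enzyme), AT4G34270 and AT2G28390, had log2 changes of -0.085 to 0.029, and none passed the test.

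Of the 15922 probe sets bright enough to test, 485 (3.05%) changed without iron, 250 upward (1.57%) and 235 downward (1.48%). Throughout, a change is a log2 difference of -Fe over +Fe, the error after ± is the standard error from limma with all 8 arrays, and a probe set is called changed when its adjusted p is under 0.05. Rises were larger than falls at the top end: 105 of the rises and 77 of the falls reached 2-fold, 37 and 16 reached 4-fold, and 20 and 4 reached 8-fold. The median called rise was 0.84 and the median called fall -0.75. All 485 had the same sign in both replicates, and in 482 the 2 arrays of each medium did not overlap, which held for 37.5% of all tested probe sets. Of probe sets named for 1 gene, 116 rose and 106 fell (2.52% of those tested). Of unnamed probe sets, 131 rose and 127 fell (3.79%). The called share was 1.31% in the dimmest and 5.2% in the brightest of 4 equal bands of signal. The median standard error in the same bands was 0.31 and 0.10.

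**Figure D1:**
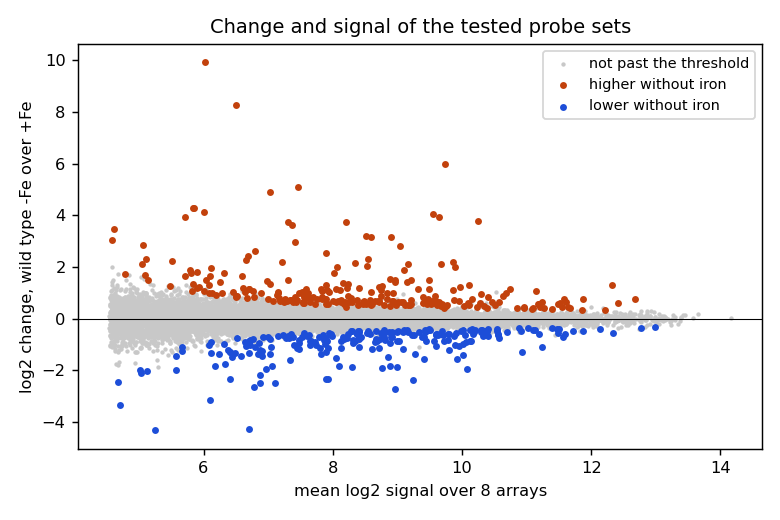
Log2 change of -Fe over +Fe wild-type roots (vertical axis) against mean log2 signal over the 8 arrays (horizontal axis) for the 15922 tested probe sets, 1 point each. The 250 called rises reach higher than the 235 called falls reach low, and the 20 rises of 8-fold or more lie clear of the grey points.

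The count depends on the replicate block, the variance model and single arrays, and on further settings given near the end. Without the replicate block 155 probe sets (0.973%) passed, 89 upward and 66 downward, all of them among the 485, and without an intensity trend in the variance 97 passed. Leaving out -Fe replicate 1 gave 220 calls, leaving out -Fe replicate 2 gave 243 and leaving out +Fe replicate 1 gave 194, of which 70 were falls, and 136 of the 485 were called whichever wild-type array was dropped. Of the 76 called probe sets described by name below, 33 kept the call and its direction under all 15 alternatives run, and for the others the alternatives that ended the call are given beside the value or with the comparison to pye-1. Genes of the report without such a note are among the 33, unless they were picked from the wider list of calls, where only the fit without the block is given.

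**Figure D2:**
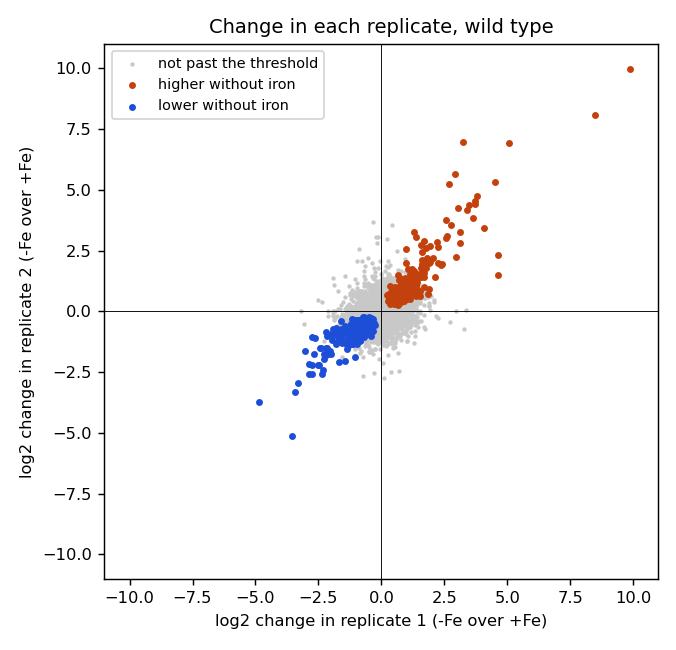
Log2 change of -Fe over +Fe in replicate 1 (horizontal axis) and replicate 2 (vertical axis), wild type, 1 point per tested probe set. The called probe sets lie along the diagonal (r = 0.939 across 485 probe sets, which were chosen for it), while all tested probe sets form a rounder cloud (r = 0.453); probe sets are not independent replicates.

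Iron acquisition held the largest named rise. All 5 tested members of the iron uptake list rose, against 1.57% of all tested probe sets, with a median log2 change of 3.79 against 0.0026 over all tested. The list was fixed with 16 loci, of which 5 have a named probe set here, and the best-known reductase and importer of the pathway are not among the named probe sets. The list, like the others, was compiled with results of these arrays known.

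AT3G12900, an oxygenase that hydroxylates the coumarin scopoletin on the way to fraxetin, read 1018 and 1200.4 in -Fe roots, against 2.88 and 4.44 in +Fe roots. Both +Fe values lie under the control level, so the difference is a bound: at least 56.7-fold higher without iron. The adjusted p of 6.13e-10 belongs to the limma fit on signals without that floor. AT3G13610, the oxygenase that makes the scopoletin precursor from feruloyl-CoA, was abundant on both media and rose far less. It read 4534 and 4986 in -Fe roots, against 3113 and 2507 in +Fe roots, a log2 change of 0.77 ± 0.15, adjusted p = 0.0134. That call ended without the replicate block (adjusted p = 0.154), without the intensity trend (0.234) and without wild-type -Fe replicate 2 or wild-type +Fe replicate 1 or wild-type +Fe replicate 2 (0.0754 to 0.195). BGLU42, a beta-glucosidase that releases coumarins from their glucosides for secretion, read 1237 and 1124 in -Fe roots, against 258 and 279.8 in +Fe roots (log2 change 2.13 ± 0.11, adjusted p = 1.40e-07). The 2 arrays of a medium lay close together for BGLU42, and no +Fe array came near an -Fe array.

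AT3G58060 encodes a vacuolar carrier of manganese. It read 269 and 303 in -Fe roots, against 20.6 and 13 in +Fe roots. Its log2 change was 4.13 ± 0.39, adjusted p = 5.00e-05, or 3.69 once signals are floored at the control level, under which 1 of the +Fe values lies. AT3G07720, a protein with Kelch repeats, read 4285 and 4477 in -Fe roots, against 407 and 246 in +Fe roots (log2 change 3.79 ± 0.16, adjusted p = 2.58e-08). For both genes the +Fe arrays differed more from each other than the -Fe arrays did.

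Of the regulators of the response, 10 of the 17 loci on the list have a tested probe set, and of their 11 probe sets 6 rose and none fell (1.57% and 1.48% of all tested), with a median of 0.89. BHLH101, a subgroup Ib partner of FIT, read 343 and 380.3 in -Fe roots, against 42.1 and 20.2 in +Fe roots (log2 change 3.63 ± 0.24, adjusted p = 2.09e-06). With signals floored at the control level, under which 1 +Fe value lies, the change was 3.51. AT1G47400, which encodes a small peptide of the IRON MAN family that shields upper-tier bHLH factors from the BTS ligases, read 570.1 and 561 in -Fe roots, against 45.3 and 39.1 in +Fe roots (log2 change 3.75 ± 0.14, adjusted p = 1.15e-08). Both lay under the array's median signal with iron and well above it without.

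The BTS-like ubiquitin ligases rose as well. AT1G74770 has 2 probe sets: one read 134 and 269.7 in -Fe roots, against 41.9 and 36.2 in +Fe roots, the other 1789.7 and 1479 in -Fe roots, against 468 and 363 in +Fe roots. The second was brighter on every array, and the log2 changes were close, 2.29 ± 0.25 and 1.98 ± 0.11 (adjusted p = 1.83e-04 and 3.04e-07). Of 89 genes with 2 or more tested probe sets, 2 had a called probe set, and AT1G74770 was the one gene called by all of them. AT1G18910, the other BTS-like gene, read 561 and 627 in -Fe roots, against 292 and 352 in +Fe roots (log2 change 0.89 ± 0.11, adjusted p = 4.66e-04).

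PYE, a bHLH repressor that is itself iron-regulated, read 138 and 149 in -Fe roots, against 56.7 and 65.1 in +Fe roots. The arrays did not overlap, with a log2 change of 1.24 ± 0.29, adjusted p = 0.0384, the weakest call among the regulators. It ended without the replicate block (adjusted p = 0.0819), without the intensity trend (0.0508), with dim probe sets kept (0.120), after quantile normalization (0.0548) and without wild-type -Fe replicate 1 or wild-type -Fe replicate 2 or wild-type +Fe replicate 1 or wild-type +Fe replicate 2 (0.105 to 0.328). The upper-tier factors bHLH34, bHLH104, bHLH115, bHLH121 and ILR3, which act ahead of PYE and BHLH101, had log2 changes of -0.24 to 0.15, and none passed (adjusted p = 0.338 to 0.973). ILR3 read 950.4 and 988 in -Fe roots, against 866 and 878 in +Fe roots, so the transcript was abundant on both media.

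**Figure D3:**
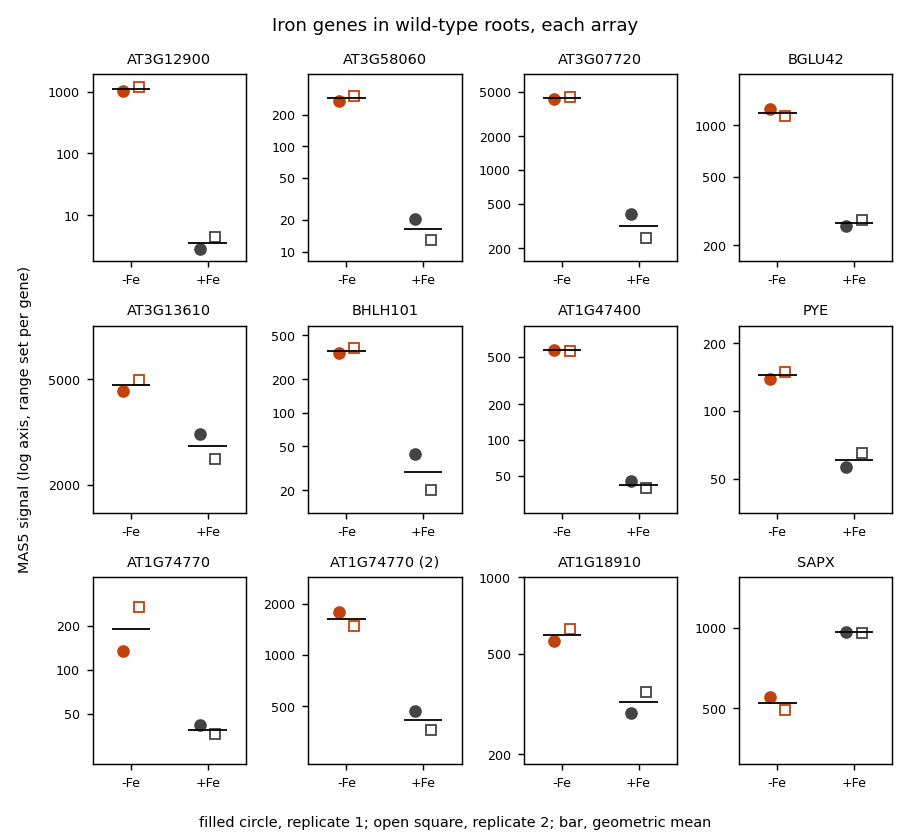
MAS5 signal (vertical log axis, range set per gene) of the called iron uptake and regulator probe sets and SAPX in each wild-type array, -Fe in orange on the left and +Fe in grey on the right, with circles for replicate 1, open squares for replicate 2 and bars for the geometric mean. The 2 media do not overlap for any of them; AT1G74770 appears once per probe set, and SAPX is lower without iron.

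Of the 14 loci on the list of iron storage and iron-protein genes 3 are named here, and 1 of them was bright enough to test: SAPX, a heme-containing ascorbate peroxidase of the plastid stroma, read 550.5 and 492 in -Fe roots, against 969 and 957 in +Fe roots (log2 change -0.89 ± 0.095, adjusted p = 1.33e-04). None of 4 tested tetrapyrrole and heme synthesis genes passed, with log2 changes of -0.12 (HEMB1) to 0.39 (HEME1), nor did any of 3 iron-sulfur assembly genes, 0.070 (CPNIFS) to 0.13 (HCF101). The 4 tested zinc, copper and manganese genes did not pass either, from -0.15 for CCS, the copper chaperone of superoxide dismutase, to 0.50 for the transporter ZIP9, whose signals were 48.5 and 44.6 in -Fe roots, against 28.4 and 38 in +Fe roots. A p that misses the threshold does not show that these genes kept their level. No member of the lists for iron ligand transport or for phosphate and nitrate has a named probe set here.

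Coumarins draw on the phenylpropanoid pathway, and 1 of 3 tested genes of that list rose (1.57% of all tested did). AT1G28680, an acyltransferase of coumarin synthesis, read 969 and 1095 in -Fe roots, against 705 and 751 in +Fe roots, a log2 change of 0.50 ± 0.11, adjusted p = 0.0264. The call ended without the replicate block (adjusted p = 0.187), without the intensity trend (0.232) and without wild-type -Fe replicate 1 or wild-type -Fe replicate 2 or wild-type +Fe replicate 1 or wild-type +Fe replicate 2 (0.0983 to 0.239). CCR2, a cinnamoyl-CoA reductase, and HCT, a shikimate hydroxycinnamoyl transferase, had log2 changes of 0.49 and 0.20 and did not pass (adjusted p = 0.163 and 0.284). Downstream in the same chemistry, UGT72E1, which glucosylates coniferyl aldehyde, read 1922 and 1859 in -Fe roots, against 866 and 692 in +Fe roots. It rose by 1.29 ± 0.13 (adjusted p = 6.23e-05) and was 1 of 33 tested glycosyltransferases named UGT to pass, a share close to the 3.05% of all tested probe sets.

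Among the other large rises, several genes had little signal with iron. AT1G73120 read 640.1 and 791 in -Fe roots, against 66.9 and 6.40 in +Fe roots. The +Fe replicates lay far apart, with 1 of them under the control level. Its log2 change of 5.10 ± 0.65, adjusted p = 5.94e-04 therefore ran from 3.30 to 6.91 as single wild-type arrays were left out, was 4.16 once signals are floored at the control level, and lost its call without the intensity trend (adjusted p = 0.111). ATPMEPCRB, a pectin methylesterase, which alters the gelling of cell wall pectin, read 683 and 1033 in -Fe roots, against 30.4 and 25.9 in +Fe roots (log2 change 4.90 ± 0.50, adjusted p = 9.70e-05). The change was 4.49 in replicate 1 and 5.32 in replicate 2, and the call ended without the intensity trend (adjusted p = 0.0662).

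AT5G38820, a predicted amino acid transporter, read 488 and 473 in -Fe roots, against 29 and 44.2 in +Fe roots (log2 change 3.75 ± 0.19, adjusted p = 1.90e-07). AT3G61930, a short protein of unknown function, read 1129.5 and 1179 in -Fe roots, against 129.9 and 121 in +Fe roots (log2 change 3.20 ± 0.12, adjusted p = 1.08e-08). These 2 genes and the peptide gene AT1G47400 rose by more than 8-fold. The arrays of a medium lay close together, except the +Fe arrays of AT5G38820. AT3G06890 and AT4G19370, both predicted membrane proteins, rose by 2.96 ± 0.15 and 2.44 ± 0.22 (adjusted p = 1.90e-07 and 2.78e-05). AT5G62420, an aldo-keto reductase, read 295 and 284 in -Fe roots, against 37.6 and 60.5 in +Fe roots (log2 change 2.60 ± 0.21, adjusted p = 8.72e-06). A pair of weaker entries completes the list of large rises. AT1G06830, a glutaredoxin of the plant-specific CC type, read 53.1 and 83.1 in -Fe roots, against 2.14 and 16.5 in +Fe roots with both +Fe values at the control level, at least 3.41-fold higher without iron (adjusted p = 0.0159). That call ended without the replicate block (adjusted p = 0.0881), without the intensity trend (0.177) and without wild-type -Fe replicate 1 or wild-type -Fe replicate 2 or wild-type +Fe replicate 1 (0.117 to 0.136). AT2G19410, a kinase with a U-box domain, read 106 and 127 in -Fe roots, against 41.6 and 15 in +Fe roots (log2 change 2.22 ± 0.44, adjusted p = 0.0159). With signals floored at the control level, under which 1 +Fe value lies, the change was 1.89. For AT2G19410 the call ended without the replicate block (adjusted p = 0.0573), without the intensity trend (0.177) and without wild-type -Fe replicate 1 or wild-type -Fe replicate 2 or wild-type +Fe replicate 2 (0.0859 to 0.188).

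Further rises outside the naming rule were picked after their values were seen. GH3.3, which conjugates auxin to amino acids, read 85.3 and 104 in -Fe roots, against 22.8 and 25.8 in +Fe roots (log2 change 1.95 ± 0.22, adjusted p = 1.71e-04), and AT5G05250 read 494 and 536 in -Fe roots, against 162 and 99.3 in +Fe roots (2.02 ± 0.21, adjusted p = 1.16e-04). Neither gene's arrays overlapped between media, and both passed without the block (adjusted p = 0.00104 and 0.00172). BCAT4, the aminotransferase that starts the chain elongation of methionine for glucosinolates, read 282 and 286 in -Fe roots, against 115 and 111 in +Fe roots (log2 change 1.34 ± 0.19, adjusted p = 0.00155). For BCAT4 the call ended without the intensity trend (adjusted p = 0.0685). The second tested gene of that list, AT2G31790, had 0.56 and did not pass (adjusted p = 0.172).

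Falls were led by class III peroxidases, secreted heme enzymes that cross-link cell walls and handle hydrogen peroxide. This family was looked up by locus after the first falls had been seen. Of 73 loci, 55 have a named probe set and 41 were tested, of which 9 fell (1.48% of all tested did) and 1 rose (1.57%), and the family's median change was 0.028. Without the block 4 peroxidases passed. AT3G49960 read 10.9 and 25.9 in -Fe roots, against 312 and 346 in +Fe roots, with 1 -Fe value under the control level (log2 change -4.29 ± 0.26, adjusted p = 6.48e-07, or -4.17 once signals are floored at the control level). AT1G34510 read 28.4 and 25.9 in -Fe roots, against 285 and 202 in +Fe roots (log2 change -3.14 ± 0.28, adjusted p = 2.66e-05). For these 2 genes signal was low on both -Fe arrays and well above the array median on both +Fe arrays.

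AT4G26010 and AT2G39040 kept more of their signal. AT4G26010 read 694 and 634 in -Fe roots, against 1434 and 1359 in +Fe roots (log2 change -1.07 ± 0.10, adjusted p = 2.82e-05), and AT2G39040 read 213 and 208 in -Fe roots, against 394 and 371 in +Fe roots (-0.86 ± 0.12, adjusted p = 0.00134). These 4 are the falls that passed without the block. The other 5 called falls, AT2G37130, AT4G30170, AT1G30870, AT5G15180 and AT5G64100, were bright genes with log2 changes of -0.55 to -0.35, and none passed without the block (adjusted p = 0.116 to 0.674). AT2G35380 went the other way, with 1155 and 1244 in -Fe roots, against 709 and 792 in +Fe roots (log2 change 0.68 ± 0.15, adjusted p = 0.0264, 0.175 without the block). UPB1, a bHLH factor known to repress peroxidases where root cells stop dividing, was itself lower at 157 and 220.3 in -Fe roots, against 394 and 428 in +Fe roots (log2 change -1.14 ± 0.17, adjusted p = 0.00253, 0.0980 without the block); it was picked after its values were seen.

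Root hair and cell wall genes were also among the falls. EXPA18, an expansin of root hairs, read 339.6 and 299.9 in -Fe roots, against 704 and 522 in +Fe roots (log2 change -0.93 ± 0.11, adjusted p = 4.51e-04). EXPA7, a second root hair expansin and the other tested marker of that list, read 488 and 451 in -Fe roots, against 709 and 533 in +Fe roots, a log2 change of -0.39 that did not pass (adjusted p = 0.101). In whole-root RNA, fewer cells of a type and less RNA per cell cannot be told apart. Of 6 tested extensins, structural glycoproteins of the wall, 3 fell (1.48% of all tested did): AT4G08410, AT5G06630 and HRGP1, with log2 changes of -1.29, -1.16 and -0.63. All 3 are read by probe sets marked as able to cross-hybridise, which may share signal between extensins. AT5G06630 read 72.4 and 176 in -Fe roots, against 174 and 364 in +Fe roots, so the media overlapped and replicate 2 was higher on both. None of the 3 passed without the block (adjusted p = 0.500 to 0.801). The calls of AT4G08410 and HRGP1 also ended without the intensity trend and without 1 wild-type array: for AT4G08410 -Fe replicate 2 or +Fe replicate 1, for HRGP1 -Fe replicate 1 or +Fe replicate 1.

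Among other wall and secreted proteins, 3 large falls were called under every alternative run. AT2G41810, a wall protein with a DUF642 domain, read 137 and 142 in -Fe roots, against 439 and 604 in +Fe roots (log2 change -1.88 ± 0.15, adjusted p = 7.62e-06). AT2G43890, a pectin lyase-like protein, read 67.4 and 67.4 in -Fe roots, against 173 and 174 in +Fe roots (-1.36 ± 0.18, adjusted p = 7.42e-04). AT4G25790, a secreted protein of the CAP family, read 67.2 and 53.5 in -Fe roots, against 173 and 156 in +Fe roots (-1.45 ± 0.18, adjusted p = 5.04e-04), and a second CAP gene, AT4G30320, picked after its values were seen, read 55.6 and 51.6 in -Fe roots, against 135 and 127 in +Fe roots (-1.29 ± 0.19, adjusted p = 0.00185, 0.00734 without the block). AT2G41810, AT2G43890 and AT4G25790 were chosen among falls without overlap between media. In AT4G30320 too each -Fe array lay well under each +Fe array. CSLC12, a glucan synthase of the xyloglucan backbone, read 14.5 and 18.4 in -Fe roots, against 79.6 and 52.9 in +Fe roots (log2 change -1.99 ± 0.39, adjusted p = 0.0143). For CSLC12 the call ended without the intensity trend (adjusted p = 0.0603), with dim probe sets kept (0.0507) and without wild-type -Fe replicate 1 or wild-type +Fe replicate 1 (0.132 to 0.250). AT5G19800, an extensin-like protein, read 30.6 and 27.8 in -Fe roots, against 139 and 96 in +Fe roots (-1.99 ± 0.40, adjusted p = 0.0158). For AT5G19800 the call ended without the replicate block (adjusted p = 0.0573), without the intensity trend (0.164) and without wild-type -Fe replicate 1 or wild-type -Fe replicate 2 or wild-type +Fe replicate 1 (0.0671 to 0.255).

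**Figure D4:**
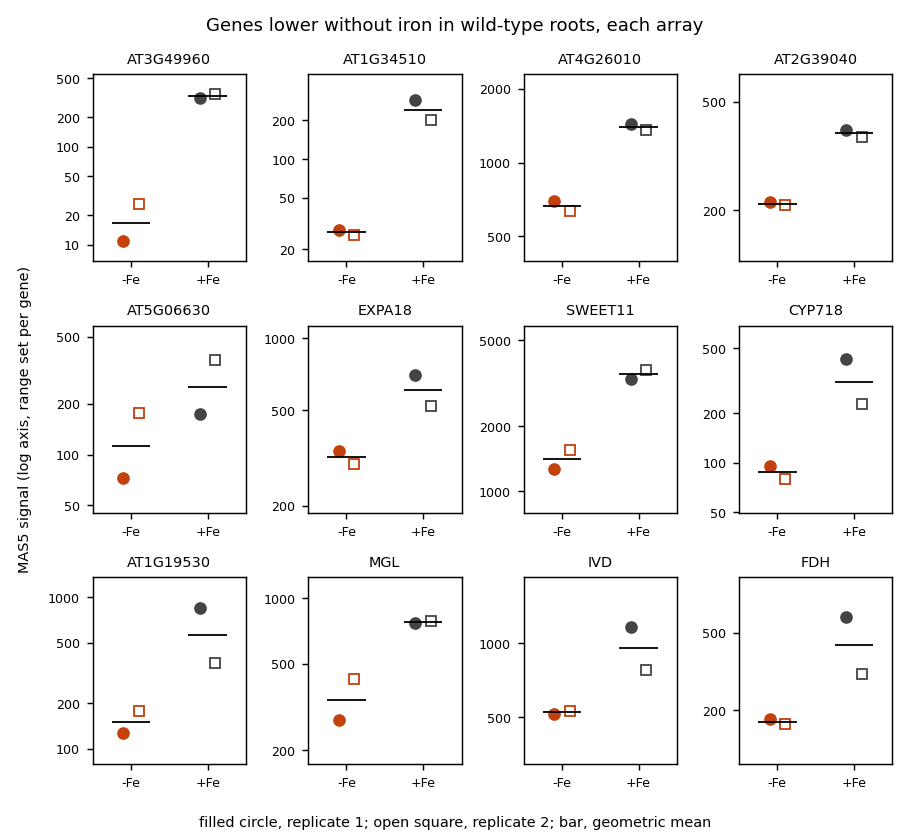
MAS5 signal (vertical log axis, range set per gene) of 12 called falls in each wild-type array, -Fe in orange on the left and +Fe in grey on the right, with circles for replicate 1, open squares for replicate 2 and bars for the geometric mean. The media overlap for AT5G06630, and for CYP718, AT1G19530, IVD and FDH +Fe replicate 1 stands well above +Fe replicate 2.

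Wall-loosening enzymes moved in both directions within a family. Of all tested probe sets 1.57% rose and 1.48% fell. Of 13 tested expansins, 3 rose and EXPA18 fell: EXPA4 read 562 and 507 in -Fe roots, against 197 and 284 in +Fe roots (log2 change 1.18 ± 0.24, adjusted p = 0.0170), EXPB3 had 1.17 ± 0.22 and EXPA15 0.66 ± 0.14 (adjusted p = 0.0102 and 0.0258). Of 7 tested xyloglucan endotransglucosylases 2 rose, XTH20 by 0.90 and XTH21 by 0.72 (adjusted p = 0.0397 and 0.0228). Of 9 tested GH9 glucanases, which trim cellulose, GH9C2 and GH9B8 rose by 1.00 and 0.97 and GH9C1 had -0.55 (adjusted p = 0.00723, 0.00268 and 0.0201). All 8 of these calls other than EXPA18 ended without the block, with adjusted p of 0.0503 to 0.153, and without the intensity trend. Each ended too without +Fe replicate 1. Leaving out an -Fe array ended all but GH9B8, and leaving out +Fe replicate 2 ended XTH20 and XTH21. XTH20 also lost its call with dim probe sets kept (adjusted p = 0.110) and without pye-1 +Fe replicate 1 or pye-1 +Fe replicate 2 (0.0630 to 0.0688). The falls and rises by family are set side by side in the plot of gene groups.

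**Figure D5:**
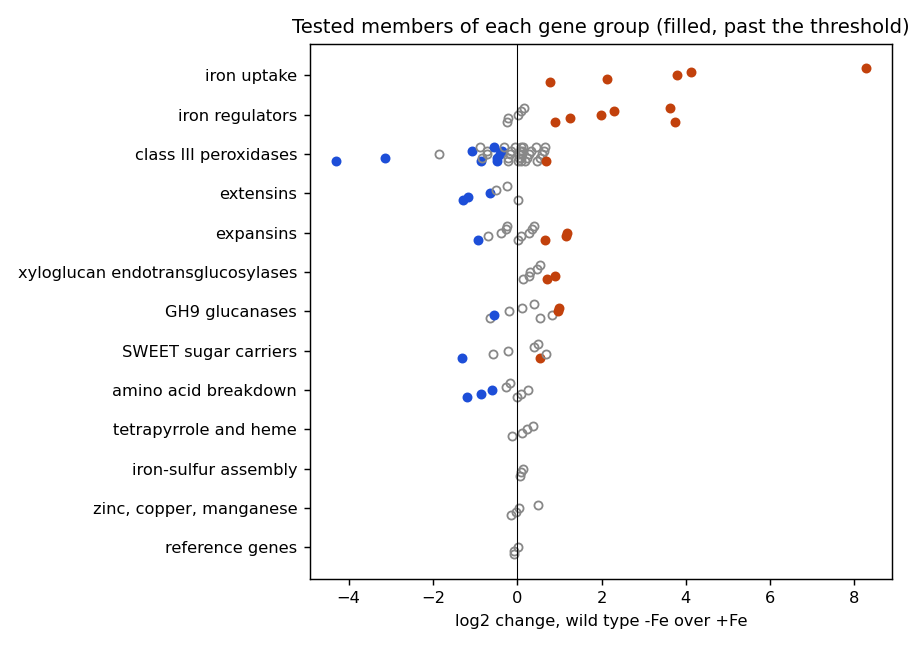
Log2 change of -Fe over +Fe wild-type roots (horizontal axis) of every tested member of 13 gene groups, 1 point each, filled orange for called rises, filled blue for called falls and open grey for members that did not pass. Every member of the iron uptake group lies to the right of 0, where AT3G12900 is drawn at its fitted value although its +Fe signal is background, and the peroxidases spread to the left around a centre near 0.

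Several metabolic genes were lower without iron. SWEET11, a sucrose exporter of the phloem and the one named phloem marker, read 1274 and 1559.6 in -Fe roots, against 3306 and 3652 in +Fe roots (log2 change -1.30 ± 0.16, adjusted p = 4.32e-04). For SWEET11 the call ended without the intensity trend (adjusted p = 0.0934). SWEET16, a vacuolar sugar carrier, read 459.5 and 636 in -Fe roots, against 303 and 455 in +Fe roots, and its rise of 0.54 ± 0.10 (adjusted p = 0.0121) ended without the replicate block (adjusted p = 0.581), without the intensity trend (0.130) and without wild-type -Fe replicate 1 or wild-type -Fe replicate 2 or wild-type +Fe replicate 1 (0.102 to 0.134). The other 5 of 7 tested SWEET genes did not pass, where 3.05% of all tested probe sets passed. CYP718, a cytochrome P450 and so a heme protein, read 96 and 79.5 in -Fe roots, against 428 and 228 in +Fe roots (log2 change -1.84 ± 0.20, adjusted p = 1.39e-04), and it was 1 of 12 tested P450 genes to pass (3.05% of all tested did).

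Breakdown of branched-chain and sulfur amino acids was represented by 8 tested genes of a list drawn up after the falls had been seen, and 3 of them fell (1.48% of all tested did). MGL, methionine gamma-lyase, read 275 and 423 in -Fe roots, against 774 and 783 in +Fe roots (log2 change -1.19 ± 0.16, adjusted p = 8.06e-04). For MGL the call ended without the replicate block (adjusted p = 0.132) and without the intensity trend (0.0960). IVD, isovaleryl-CoA dehydrogenase, read 515 and 532 in -Fe roots, against 1162 and 781 in +Fe roots (-0.86 ± 0.14, adjusted p = 0.00467). For IVD the call ended without the intensity trend (adjusted p = 0.156) and without wild-type -Fe replicate 1 or wild-type +Fe replicate 1 (0.0575 to 0.0753). MCCA, a subunit of methylcrotonyl-CoA carboxylase, had -0.60 ± 0.14 (adjusted p = 0.0439), which ended without the replicate block (adjusted p = 0.210), without the intensity trend (0.294), with dim probe sets kept (0.0735) and without wild-type -Fe replicate 1 or wild-type -Fe replicate 2 or wild-type +Fe replicate 1 or pye-1 +Fe replicate 1 or pye-1 +Fe replicate 2 (0.0579 to 0.459). FDH, mitochondrial formate dehydrogenase, picked after its values were seen, read 181 and 169 in -Fe roots, against 603 and 308 in +Fe roots (log2 change -1.30 ± 0.22, adjusted p = 0.00623, 0.0503 without the block). For IVD and FDH +Fe replicate 1 was the outstanding array, and the -Fe arrays were almost equal.

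The low-oxygen list, with 4 tested genes, had 2 falls (1.48% of all tested fell). AT1G19530, a short protein induced when oxygen is scarce, read 127 and 178 in -Fe roots, against 847 and 370.2 in +Fe roots; the +Fe arrays differed by more than 2-fold, and the log2 change of -1.90 ± 0.30, adjusted p = 0.00318 ended without the intensity trend (adjusted p = 0.164) and without wild-type -Fe replicate 1 (0.0577). AT1G33055 read 244 and 288 in -Fe roots, against 475 and 408 in +Fe roots (log2 change -0.73 ± 0.12, adjusted p = 0.00510). For AT1G33055 the call ended without the intensity trend (adjusted p = 0.128) and without wild-type -Fe replicate 1 or wild-type +Fe replicate 1 (0.0932 in each case). AT3G27220 and AT4G10270 had 0.12 and -0.20 and did not pass. The wild-type signals of AT4G10270, 14.3 to 27.5, lay near the control level. In the list of oxidative and mitochondrial stress genes, GSTU25, a glutathione S-transferase, read 779.7 and 905 in -Fe roots, against 496 and 656 in +Fe roots (log2 change 0.56 ± 0.10, adjusted p = 0.00903), 1 rise among 5 tested (1.57% of all tested rose); the call ended without the replicate block (adjusted p = 0.333), without the intensity trend (0.143) and without wild-type -Fe replicate 1 or wild-type +Fe replicate 1 (0.105 to 0.129). GSTU20 read 109.9 and 111 in -Fe roots, against 51.1 and 60.0 in +Fe roots (log2 change 1.00 ± 0.22, adjusted p = 0.0269) and lost its call without the replicate block (adjusted p = 0.0686), without the intensity trend (0.0590), with dim probe sets kept (0.0821) and without wild-type -Fe replicate 1 or wild-type -Fe replicate 2 or wild-type +Fe replicate 1 or pye-1 +Fe replicate 1 or pye-1 +Fe replicate 2 (0.0523 to 0.253). GI, the one tested clock gene, had 0.20 and did not pass (adjusted p = 0.675).

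The remaining large falls were mostly dim or uneven. AT2G39980, an acyltransferase, read 11.6 and 6.06 in -Fe roots, against 124 and 59.8 in +Fe roots, with both -Fe values under the control level, at least 5.60-fold lower without iron (adjusted p = 0.0205); the call ended without the replicate block (adjusted p = 0.0711), without the intensity trend (0.204), with dim probe sets kept (0.0568) and without wild-type -Fe replicate 2 or wild-type +Fe replicate 1 or pye-1 +Fe replicate 1 or pye-1 +Fe replicate 2 (0.0587 to 0.305). LEA18, a late embryogenesis abundant protein, read 15.2 and 8.34 in -Fe roots, against 78.8 and 49 in +Fe roots (log2 change -2.47 ± 0.47, adjusted p = 0.0119). With signals floored at the control level, under which 1 -Fe value lies, the change was -1.89. For LEA18 the call ended without the replicate block (adjusted p = 0.0925), without the intensity trend (0.0594) and without wild-type -Fe replicate 1 or wild-type -Fe replicate 2 or wild-type +Fe replicate 1 or wild-type +Fe replicate 2 (0.0719 to 0.126). ARL, a gene of cell expansion, read 77.4 and 119 in -Fe roots, against 348 and 239.6 in +Fe roots (-1.59 ± 0.26, adjusted p = 0.00467). For ARL the call ended without the replicate block (adjusted p = 0.0503), without the intensity trend (0.152) and without wild-type -Fe replicate 1 or wild-type +Fe replicate 1 (0.0588 to 0.0693). ATL8, a RING-type ubiquitin ligase, read 122 and 219 in -Fe roots, against 559 and 398 in +Fe roots (-1.53 ± 0.29, adjusted p = 0.0123). For ATL8 the call ended without the replicate block (adjusted p = 0.196), without the intensity trend (0.221) and without wild-type -Fe replicate 1 or wild-type -Fe replicate 2 or wild-type +Fe replicate 1 (0.0508 to 0.116). LEA18, ARL and ATL8 were chosen among falls without overlap between the 2 media, so that separation is no support, and the arrays of 1 medium differed widely. AT2G34610 had -1.48 ± 0.28 and AT5G62210 -1.45 ± 0.30 (adjusted p = 0.0119 and 0.0193). The call of AT2G34610 ended without the replicate block (adjusted p = 0.228), without the intensity trend (0.156) and without wild-type -Fe replicate 1 or wild-type +Fe replicate 1 (0.139 to 0.207). That of AT5G62210 ended without the replicate block (adjusted p = 0.165), without the intensity trend (0.224) and without wild-type -Fe replicate 2 or wild-type +Fe replicate 1 or wild-type +Fe replicate 2 (0.0552 to 0.221). STR18, a sulfurtransferase picked after its values were seen, was a brighter case with 803 and 772 in -Fe roots, against 1816 and 1363 in +Fe roots (log2 change -1.0 ± 0.11, adjusted p = 1.51e-04, 0.00888 without the block).

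Markers of other tissues could be checked only in part. The root tissue had root hair expansins and the phloem gene SWEET11 at clear signal, while endodermis, xylem, root cap, non-hair epidermis, stele, dividing-cell and seed markers have no named probe set here. Of 9 green-tissue markers 3 are named, and 1 of the 3 fell (1.48% of all tested did). It was PSAN, a photosystem I subunit, which read 82.6 and 86.4 in -Fe roots, against 174 and 149.8 in +Fe roots (log2 change -0.93 ± 0.17, adjusted p = 0.00798). For PSAN the call ended without wild-type -Fe replicate 1 or wild-type +Fe replicate 1 (adjusted p = 0.109 to 0.116). RCA and LHCB4.1 had -0.36 and -0.37 and did not pass. The summed signal of the 3 was 674 and 647 in -Fe roots, against 920 and 888 in +Fe roots; its part in the falls was not tested. Of 69 probe sets for plastid genome genes 1 passed, a share under the 3.05% of all tested. It was psbT, at 0.76 ± 0.17 (adjusted p = 0.0324), with signals of 112 and 263 in -Fe roots, against 59.3 and 173 in +Fe roots that overlapped. For psbT the call ended without the replicate block (adjusted p = 0.869), without the intensity trend (0.177), with dim probe sets kept (0.0613) and without wild-type -Fe replicate 1 or wild-type -Fe replicate 2 or wild-type +Fe replicate 1 or wild-type +Fe replicate 2 (0.0677 to 0.269). Of 6 tested histone genes 1 fell (1.48% of all tested did). It was HIS1-3, a linker histone, which read 1036 and 917 in -Fe roots, against 1554 and 1236 in +Fe roots (log2 change -0.51 ± 0.10, adjusted p = 0.0187). For HIS1-3 the call ended without the replicate block (adjusted p = 0.504), without the intensity trend (0.217) and without wild-type -Fe replicate 1 or wild-type +Fe replicate 1 or wild-type +Fe replicate 2 (0.0968 to 0.253).

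The largest fitted rise and the largest fitted fall of all tested probe sets belonged to unnamed ones, given here by array ID after the word probe. The largest, probe-253502_at, read 936 and 1218 in -Fe roots, against 0.994 and 1.21 in +Fe roots, with both +Fe values far under the control level, at least 54.8-fold higher without iron (adjusted p = 1.18e-10). By contrast probe-254550_at was measurable on both media, with 4054 and 4238 in -Fe roots, against 122 and 35 in +Fe roots (log2 change 5.99 ± 0.35, adjusted p = 6.30e-07). For probe-262091_at both +Fe values were at the control level, with 199.8 and 235 in -Fe roots, against 14.3 and 8.67 in +Fe roots, at least 11.1-fold higher (adjusted p = 1.70e-06). The last 2 of the 5 largest unnamed rises were probe-257689_at (4.27 ± 0.50, adjusted p = 3.05e-04 and 2.91 once signals are floored at the control level) and probe-251677_at (4.07 ± 0.15, adjusted p = 1.15e-08). The call of probe-257689_at ended without the intensity trend (adjusted p = 0.0702).

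The largest unnamed fall, probe-263376_at, read 15.3 and 3.34 in -Fe roots, against 180.1 and 115 in +Fe roots (log2 change -4.33 ± 0.43, adjusted p = 7.49e-05, or -3.10 once signals are floored at the control level). The brightest was probe-254818_at, with 386 and 252 in -Fe roots, against 2798 and 1504 in +Fe roots (log2 change -2.72 ± 0.41, adjusted p = 0.00242). For probe-254818_at the call ended without the intensity trend (adjusted p = 0.156) and without wild-type +Fe replicate 1 (0.0508). The other 3, probe-248636_at, probe-256352_at and probe-247871_at, had log2 changes of -2.66, -2.51 and -2.48 (adjusted p = 5.37e-06, 9.13e-06 and 3.52e-06). All 5 fell in both replicates, which their choice among falls without overlap between media requires.

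The wild-type calls were set beside the changes in pye-1 roots on the same media. In pye-1, 400 of the 485 pointed the same way, 174 were called in that direction (117 rises and 57 falls) and 10 were called in the other. The share of all tested probe sets with the same sign in both genotypes was not counted, so no excess is read from the 400. All told 422 probe sets (2.65%) were called in pye-1. The difference between the genotypes' responses was tested as an interaction, and 56 probe sets (0.352%) passed, 29 of them among the 485; 14 passed without the block. For 4 genes of uptake and its control the pye-1 changes were 4.54 for AT3G58060, 3.85 for AT3G07720, 2.32 for BGLU42 and 3.52 for BHLH101, with interactions of -0.41, -0.057, -0.19 and 0.11 that did not pass (adjusted p = 0.688 to 0.955). Other called iron genes lay further apart between the genotypes. In pye-1 AT1G47400 had 2.72, SAPX -0.29 (not called) and AT3G13610 1.33. AT1G47400 read 1783 and 1185.5 in pye-1 -Fe roots, against 226 and 216 in pye-1 +Fe roots, above wild type on both media. The interactions of AT1G47400, SAPX and AT3G13610 were 1.03 ± 0.20, -0.60 ± 0.13 and -0.56 ± 0.21. These did not pass either (adjusted p = 0.0666, 0.103 and 0.339). A p that misses the threshold does not show that the genotypes respond alike.

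Where the interaction passed, some genes moved in opposite directions. BCAT4 rose in wild type (1.34) and was lower in pye-1 (-1.05, adjusted p = 0.0102), an interaction of 2.38 ± 0.27 (adjusted p = 0.00143). AT1G19530 fell in wild type (-1.90) and rose in pye-1 (1.77, adjusted p = 0.00549), an interaction of -3.67 ± 0.42 (adjusted p = 0.00151). AT3G49960 fell in both genotypes, by a larger amount in wild type (-4.29 against -1.83; interaction -2.46 ± 0.36, adjusted p = 0.0104, and 0.225 without the block). AT3G61930 rose in both, by less in wild type (3.20 against 4.17; interaction adjusted p = 0.0292, and 0.225 without the block). None of these 4 interactions passed without the intensity trend, those of BCAT4 and AT1G19530 passed whichever array was left out, and those of AT3G49960 and AT3G61930 did not.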

How the data were processed

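Signals were used as the authors deposited them: intensity values on a linear scale, MAS5 values per the submitters' processing notes. MAS5 subtracts mismatch probes, so dim probe sets scatter on the log2 scale. No genome build is given in the sources used here, and no sequence or coordinate is printed.

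Signals were log2-transformed without a pseudocount. The 64 control probe sets and the dimmest 30% of the others (6824, mean signal under 23.3) were left out. limma 3.58.1 in R 4.3.3 fitted 4 group means and the replicate number as a block over 8 arrays (eBayes with an intensity trend, 3 residual and 9.41 prior degrees of freedom, Benjamini-Hochberg within a contrast) and was tested on simulated data. The simulated probe sets all had the same spread, so that test cannot speak for the intensity trend or for the scatter of dim probe sets. The block rests on shared replicate numbers: deviations from group means correlated at 0.178 to 0.302 between same-numbered arrays. For "at least" folds, a dim value under the control level counts as that level. The adjusted p beside such a fold comes from the main fit, on signals without that floor. With 2 arrays a group, their number limits the precision.

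Names follow the platform annotation, updated by locus through TAIR10.1 symbols. Named are tested iron-list members, the 15 largest non-overlapping rises and falls, up to 4 members of other lists and families, 5 unnamed probe sets each way and up to 10 interaction genes. Members, lists and tests were chosen with earlier results of these data known. Alternatives were no block, no dim filter, a control-level floor, a pseudocount of 16, quantile normalization, no trend, wild-type arrays alone and each array left out.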

Additional observations from a re-analysis of the deposited data

Results flagged for a closer look

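For 16 of the named or singled-out probe sets, out of 56 over all tested, the wild-type change without iron differed from that in pye-1 by the interaction test at an adjusted p under 0.05. Values are wild-type minus pye-1 differences of log2 changes, ± the standard error of the limma fit. Of the 16, 6 also passed without the replicate block, and none passed without the intensity trend. Those 6 passed whichever single array was left out, while each of the other 10 was lost when at least 1 array was dropped, pye-1 +Fe replicate 2 in every case.

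Opposite directions, with wild type lower without iron and pye-1 higher, were found for AT1G33055 (-2.0 ± 0.17; -0.73 in wild type, 1.26 in pye-1), AT1G19530 (-3.67 ± 0.42), AT5G51010 (-1.87 ± 0.20; -0.73 and 1.15) and AT4G27450 (-1.50 ± 0.16; -0.49 and 1.01). All 4 passed without the block, as did BCAT4 (2.38 ± 0.27), which ran the other way. The wild-type falls of 2 of them were themselves weak calls. That of AT5G51010 ended without the block (adjusted p = 0.1501), without the trend (0.0696) and without -Fe replicate 1, -Fe replicate 2 or +Fe replicate 1 of wild type (0.107 to 0.160). That of AT4G27450 (adjusted p = 0.0429) ended under 10 of 15 alternatives: without the block (0.208), without the trend (0.269), with dim probe sets kept (0.0603), after quantile normalization (0.0525) and without wild-type -Fe replicate 1, wild-type +Fe replicate 1 or any 1 pye-1 array (0.0520 to 0.435).

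The same pattern without a pass in the fit without the block was seen for HIS1-3 (-1.15; -0.51 and 0.64) and, with a wild-type fall and no called change in pye-1, for MGL (-1.47; -1.19 and 0.28). Wild-type changes that were not called stood against called rises in pye-1 for AT1G05340 (-1.07; -0.32 and 0.75), AT1G69050 (-1.97; -0.52 and 1.45) and AT4G10270 (-3.59; -0.20 and 3.40), and against a called fall for AT1G21440 (1.87; 0.61 and -1.26). AT4G10270 lay near the control level, at 14.3 to 27.5 in wild type and at 9.34 and 22.2 in pye-1 +Fe roots. Only its pye-1 -Fe signals, 178 and 129, stood well clear of it. The interaction of AT4G10270 was kept under 3 of 14 alternatives. SWEET16 had 0.90 (0.54 and -0.36).

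Fitted rises in both genotypes differed in size for probe-253502_at (3.06; 9.93 and 6.87), probe-251677_at (1.61; 4.07 and 2.45) and AT3G61930 (-0.97), and falls did for AT3G49960 (-2.46). The +Fe signals of probe-253502_at lie under the control level in wild type and in pye-1 (11.4 and 11.3), so neither of its rises is a measured size. Its interaction did not pass with signals raised to that level or with a pseudocount. It did pass without the block. For probe-251677_at signals were higher in pye-1 on both media. There it read 3126 and 3055 in -Fe roots, against 549 and 579 in +Fe roots. In wild type it read 1743 and 1760 in -Fe roots, against 133 and 82.3 in +Fe roots.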

How the results depend on the processing

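The count of 485 changed probe sets was 155 without the replicate block, 97 without the intensity trend and 746 in a fit of the 4 wild-type arrays alone; it ran from 194 to 515 as single arrays were left out. With dim probe sets kept, signals raised to the control level, a pseudocount or quantile normalization it was 381 to 510. The 56 interactions became 14 without the block, 13 to 133 as single arrays were left out, and 0 by limma without the trend (1517 at an unadjusted p under 0.05). Of the 76 named calls, 32 ended without the block, 41 without the trend, 8 with dim probe sets kept and 2 after quantile normalization; none ended with the control level, the pseudocount or the wild-type arrays alone. Leaving out a wild-type array ended 10 to 34, and +Fe replicate 1 the most. The cause was not tested. No called change turned its sign. Among changes that were not called, those that crossed 0 as arrays were left out ran from -0.19 to 0.24 for bHLH34, -0.14 to 0.23 for ZIP6, -0.24 to 0.17 for MTP11, -0.039 to 0.50 for HEME2, -0.0073 to 0.26 for HCF101, -0.17 to 0.30 for CPNIFS, -0.033 to 0.27 for AT3G27220, -0.54 to 0.14 for AT4G10270, -0.0057 to 0.41 for GI, -0.26 to 0.089 for PEX4 and -0.014 to 0.072 for AT2G28390. Signal limits the dimmest of 4 bands, where the median standard error was 0.31.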

Other observations

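Among calls that belong to no list, some enzyme genes were picked after their values were seen. The tested members of their families were not counted in full, so no share is read from them. Of all tested probe sets 1.57% rose and 1.48% fell. Besides the rise of ATPMEPCRB, 2 other pectin methylesterases were lower without iron: AT2G47550 read 91 and 89.8 in -Fe roots, against 169 and 145 in +Fe roots (log2 change -0.79 ± 0.16, adjusted p = 0.0167) and AT5G04960 read 255 and 246 in -Fe roots, against 515 and 363 in +Fe roots (-0.79 ± 0.17, adjusted p = 0.0256), and neither passed without the block (adjusted p = 0.0615 and 0.116). The vacuolar proteases ALPHA-VPE and GAMMA-VPE had log2 changes of -0.99 and -0.38 (adjusted p = 0.0180 and 0.0407; 0.0573 and 0.300 without the block). A lipase-like gene, AT5G37690, read 1495 and 1037 in -Fe roots, against 653 and 515 in +Fe roots (log2 change 1.1 ± 0.12, adjusted p = 1.43e-04, 0.171 without the block).

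Of 3078 pairs of genes next to each other in the gene table with both tested, 1 pair had both genes called: AT4G28240, at -0.41, beside EXPB3, at 1.17, in opposite directions.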
